A study of Mus musculus with 36 samples.

Results

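The genes described here handle iron and heme. They were chosen by name, as a list of 10 genes: Hamp, Tfr2, Tfrc, Slc40a1, Fth1, Ftl1, Trf, Cp, Hmox1 and Hpx. All 10 were present in both tables of counts, among 14052 genes in liver and 16690 genes in eWAT (white fat taken from beside the epididymis), or 17536 genes in either table. RNA was sequenced from these tissues in 36 libraries, 6 for each of 3 diets in each tissue. The HFLF group had high-fat diet for 9 weeks and low-fat diet for the next 9 weeks, the HF group had high-fat diet for 18 weeks, and the LF group had low-fat diet for 18 weeks. Every group consisted of wild-type (WT) C57BL/6 males of the F0 generation, aged 24 weeks, which had eaten chow up to the age of 6 weeks. The labels state neither that each library is a separate mouse nor that the liver and eWAT libraries of 1 number share a mouse, and the series text gives 4 to 6 samples, so p-values measure the spread between libraries, which may in part be technical.

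Iron circulates in plasma bound to transferrin and enters cells through the transferrin receptor. Inside cells it is stored in ferritin, and it leaves them through ferroportin, the only known exporter. The liver makes hepcidin, the hormone that removes ferroportin from cell surfaces and so sets how much iron enters the blood, and it also makes the plasma proteins that carry iron and heme. In adipose tissue, macrophages are known to take up and recycle iron. Heme is broken down by heme oxygenase, which releases the iron.

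Part of this control acts on RNA. Iron regulatory proteins bind short hairpins, the iron-responsive elements, in the untranslated regions (UTRs) of some of these transcripts when iron is scarce. Binding in the 3′ UTR protects the transferrin receptor transcript from decay, while binding in the 5′ UTR blocks translation of ferritin and ferroportin. A search of the GENCODE M21 transcripts (GRCm38) for the loop CAGTGN with a C 6 bases before it and 5 paired bases on each side, allowing G-U pairs, found hairpins in 4 of the 10 genes. They are shown, with the loop in capitals, because the levels of these 4 transcripts are compared below. The Tfrc transcript, from chromosome 16, held 4 in its 3′ UTR, and Slc40a1 (chromosome 1), Fth1 (chromosome 19) and Ftl1 (chromosome 7) held 1 each in the 5′ UTR.
Tfrc hairpin 1: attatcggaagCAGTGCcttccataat
Tfrc hairpin 2: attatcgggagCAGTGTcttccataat
Tfrc hairpin 3: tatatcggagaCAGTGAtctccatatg
Tfrc hairpin 4: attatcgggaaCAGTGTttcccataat
Slc40a1: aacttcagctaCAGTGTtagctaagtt
Fth1: tcctgcttcaaCAGTGCttgaacggaa
Ftl1: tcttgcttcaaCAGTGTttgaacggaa
In all, 22 of 21784 coding genes (0.101%) held such a hairpin in the first 250 bases of the transcript, Slc40a1, Fth1 and Ftl1 among them. Among the 2691 coding genes whose 3′ UTR was at least as long as that of Tfrc, 1 (0.0372%) held at least 4 in a window of that length. That 1 gene is Tfrc itself, from which the window and the count of 4 were taken, so its own match was fixed in advance. In the other 6 genes no match to these letters was found. The search says nothing about other forms of the element in any of the 10 genes.

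Hamp, which encodes hepcidin, is also known to respond to bone morphogenetic protein (BMP) signalling and to interleukin-6 acting through STAT3. The RefSeq sequence (GRCm38.p6) of the 250 bases before the start of Hamp, on the minus strand of chr7:30944030-30944279, is shown because the Hamp level is compared with acute-phase genes below.
Hamp promoter: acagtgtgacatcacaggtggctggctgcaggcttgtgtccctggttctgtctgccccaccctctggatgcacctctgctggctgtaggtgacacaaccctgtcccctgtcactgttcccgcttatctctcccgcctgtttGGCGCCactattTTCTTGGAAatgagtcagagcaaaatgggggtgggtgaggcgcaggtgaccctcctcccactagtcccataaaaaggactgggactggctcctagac
The capitals mark the BMP response element letters GGCGCC, whose first base lies at -109 from the start site, and a match to the STAT letters TTCNNNGAA at -97; they do not overlap. On either strand, 11.9% of the 32851 promoters in the RefSeq table held the first motif within 300 bases and 8.3% held the second. RefSeq promoters were matched for 7 of the 10 genes, and among these the Tfrc promoter also held GGCGCC, at -89.

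The tables held 11662551 to 23295485 counts per liver library and 8941798 to 31186477 counts per eWAT library. Levels are given as CPM, the count relative to library size, scaled by TMM within a tissue, and differences as log2 fold changes ± SE with adjusted p-values from edgeR's quasi-likelihood test, adjusted by the Benjamini-Hochberg method across the whole table of a tissue. The words rose and fell are kept for genes with an adjusted p under 0.05. The labelled tissues carried their markers: albumin (Alb) held 50390 to 82280 CPM in every liver library, and the adipocyte genes Adipoq, Plin1 and Lep were measured in eWAT but are not among the liver genes. The other 3 of the 6 adipocyte markers, Lipe, Cidec and Pparg, were measured in liver. They summed to 35.7 to 46.4 CPM in HFLF, 38.6 to 201.7 CPM in HF and 22.1 to 34.7 CPM in LF. All 3 rose in HF against LF, and 1 of them did without liver LF libraries 1 to 4. Liver LF libraries 1 to 4 stood apart. The 15 acute-phase genes (Saa1, Saa2, Crp, the fibrinogens and others) summed to 15780 to 20380 CPM in HFLF and 11260 to 18730 CPM in HF, against 34660 to 49610 CPM in LF libraries 1 to 4, 21030 in LF library 5 and 16730 in LF library 6. All 15 genes were lower in HFLF and in HF than in LF. Without LF libraries 1 to 4, 0 of the 15 passed in either comparison (10 in HF and 1 in HFLF against LF at an unadjusted p under 0.05). In eWAT, Alb reached 666 CPM in LF library 5, and 5 libraries (HFLF 4, HF 3 and LF 3, 4 and 5) held over 100 CPM of Alb before TMM scaling. Many results that rest on these libraries are given with and without them, but not all. Tissue differences were refitted only without the liver LF libraries, and some counts for markers and lists are given only with all libraries. In bulk tissue, fewer cells of a type and less RNA per cell cannot be told apart.

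In liver, HF differed from LF for 6 of the 10 genes, where 34.8% of all genes passed. Hamp, Trf, Cp, Hmox1 and Hpx fell (18.5% of all genes did) and Slc40a1 rose (16.3%), although for none of the 10 did the libraries of HF and LF separate without overlap (11% of all genes did). HFLF differed from LF for 7 of the 10, where 22.6% of genes passed: Tfrc, Ftl1, Trf, Cp, Hmox1 and Hpx fell (12.4% of all genes did) and Slc40a1 rose (10.2%), with no overlap between the groups for 3 of them (6.15% of all genes). HFLF differed from HF for 2 of the 10, where 5.23% passed (2.18% higher and 3.05% lower): Fth1 and Ftl1 fell, and the groups did not overlap for Ftl1 and Hamp (3.86% of all genes). The comparisons with LF share the LF libraries. Without LF libraries 1 to 4, an alternative chosen after the data were seen, edgeR called 0 of the 10 genes in HF against LF (0 at an unadjusted p under 0.05) and 0 in HFLF against LF (3 at an unadjusted p under 0.05). Only 2 LF libraries remain in that fit, and it called 297 and 26 of all genes.

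In eWAT, HF differed from LF for 5 of the 10 genes, where 40.8% of all genes passed. Tfr2, Ftl1 and Hmox1 rose (20.6% of all genes did), and Trf and Cp fell (20.2%) with no overlap between the groups (15.8%). HFLF differed from LF for 0 of the 10 in edgeR, where 0.563% of genes passed (0.342% higher and 0.222% lower). In that comparison 1 of the 10 had an unadjusted p under 0.05, DESeq2 and limma voom also called 0, and the groups overlapped for every one of the 10 (2.56% of all genes did not). HFLF differed from HF for 4 of the 10, where 25.4% passed (10.7% higher and 14.7% lower): Trf and Cp rose with no overlap (9.44% of all genes), and Hmox1 and Ftl1 fell. Without the 5 libraries high in Alb, an alternative chosen after the data were seen, 3 rose and 2 fell in HF against LF (Tfrc passed and Ftl1 did not), 0 passed in HFLF against LF (4 at an unadjusted p under 0.05), and 2 rose and 1 fell in HFLF against HF (Ftl1 did not pass).

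**Figure D1:**
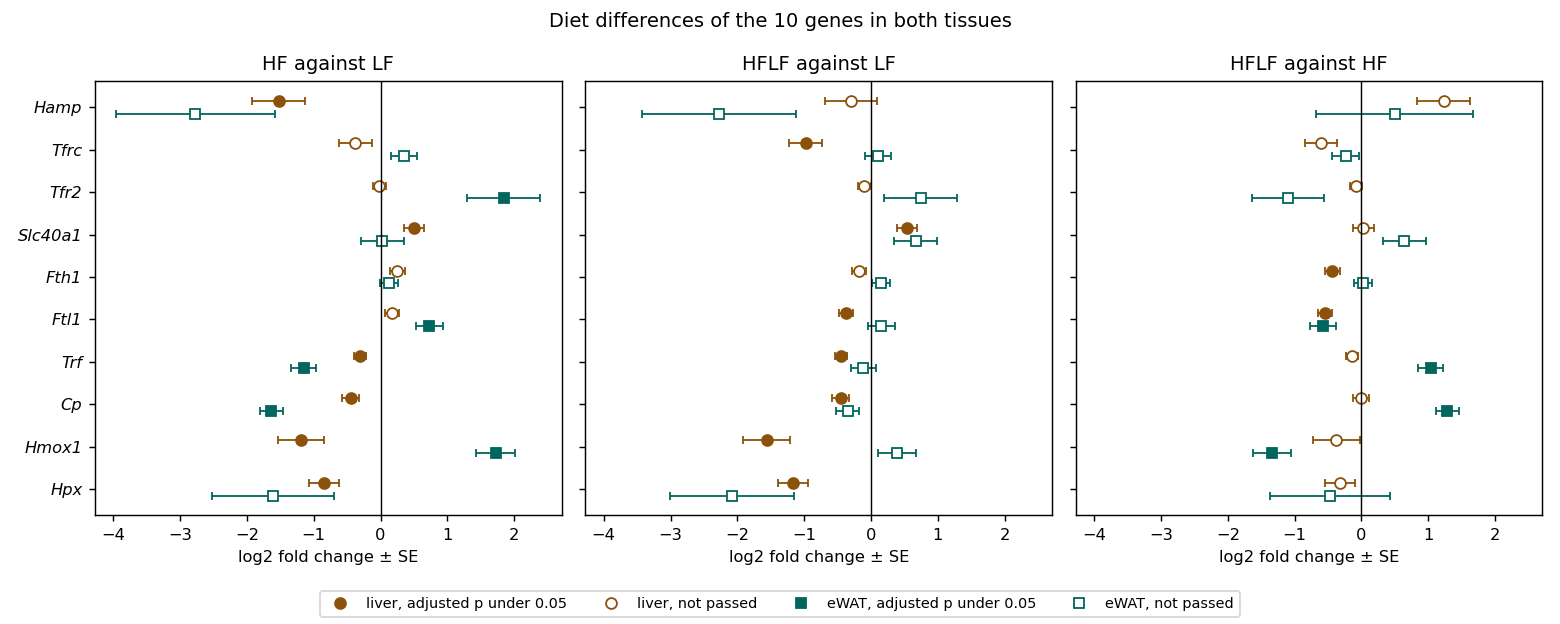
Log2 fold changes ± SE of the 10 genes in liver (circles) and eWAT (squares) in the 3 comparisons of diets, filled where the adjusted p is under 0.05. Hmox1 lies at -1.19 in liver and 1.72 in eWAT in HF against LF, and Trf and Cp in eWAT lie on opposite sides of 0 in HF against LF and HFLF against HF.

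Levels of different genes were set side by side per kilobase of merged exons (RPKM), a length that can exceed that of a transcript. It was 3469 bases for Fth1, 9000 for Slc40a1 and 9566 for Cp, against 929, 3370 and 4092 in the coding transcripts searched above. The order of the genes below therefore depends on the length used. In liver, Trf had the highest mean at 4166 ± 347 RPKM in HFLF, 4594 ± 328 in HF and 5686 ± 714 in LF (SD, n = 6 each). Hpx came next in LF at 4099 ± 1798 RPKM, with a spread that reached into that of Trf. Hamp (1645 ± 642 RPKM in LF) and Ftl1 (1256 ± 150) did not differ beyond their spread, nor did Cp (154 ± 38.2) and Tfr2 (145 ± 16.3). Tfrc was lowest, at 1.8 ± 0.362 RPKM in HFLF, 2.72 ± 1.25 in HF and 3.55 ± 0.765 in LF. By merged exons, Trf led in eWAT of HFLF at 1278 ± 230 RPKM and of LF at 1383 ± 353, while Ftl1 led in HF at 1501 ± 536. The short transcript of Fth1 would place it higher than its merged exons do, so the leading gene in eWAT is not settled. Slc40a1 lay near the bottom in eWAT in all 3 diets, at 1.8 ± 0.68, 1.15 ± 0.456 and 1.13 ± 0.487 RPKM in HFLF, HF and LF.

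**Figure D2:**
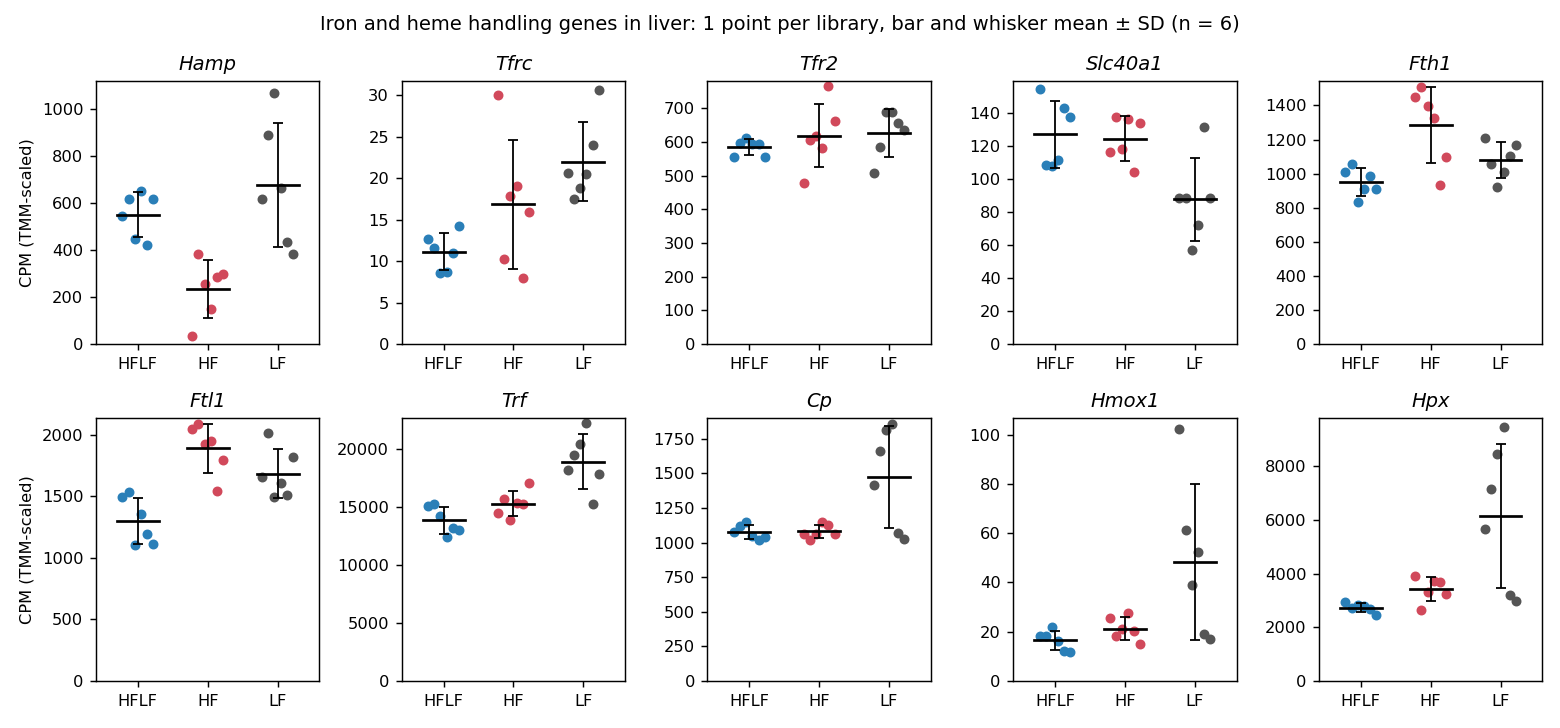
CPM of the 10 genes in each of the 18 liver libraries by diet, with mean ± SD (n = 6). The HF points of Hamp lie between 33.9 and 385 CPM, under all 6 HFLF points, and the LF points of Hpx, Hmox1 and Cp spread over a wider range than those of the other diets.

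The hepcidin gene Hamp (chr7:30942368-30944032, minus strand) separated HFLF from HF in liver without overlap. Its levels ran from 423 to 651 CPM in HFLF (median 579), from 33.9 to 385 CPM in HF (median 271) and from 383 to 1066 CPM in LF (median 639). Every HF library lay below every HFLF library, while the highest HF library, at 385 CPM, was just above the lowest LF library, at 383 CPM. The lowest of all was HF library 1. Hamp fell in HF against LF by 1.53 ± 0.40 on the log2 scale (adjusted p = 0.0079), and the value stayed between -1.73 and -1.3 when single libraries were left out. The difference between HFLF and HF was 1.23 ± 0.39 (adjusted p = 0.0768); it passed in DESeq2 (adjusted p = 0.031), in limma voom (1.4, adjusted p = 0.0261) and without HF library 1 (1.0, adjusted p = 0.0463), with adjusted p-values of 0.0261 to 0.161 over its alternatives. HFLF and LF did not differ by the test (-0.30 ± 0.39, adjusted p = 0.614).

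Hamp was higher in the LF libraries that stood apart. LF libraries 1 to 4 held 615, 889, 1066 and 662 CPM of Hamp, against 432 and 383 CPM in LF libraries 5 and 6. With those 4 left out, the difference of HF from LF was -0.80 (adjusted p = 0.431) and that of HFLF from LF was 0.43 (adjusted p = 0.773). The part of the acute-phase level in the Hamp result was not tested. The closely related gene Hamp2 held 1.79 to 52.4 CPM in liver, and any reads that fit both genes make the split between them uncertain. Gm44662, which is not among the counted genes, overlaps Hamp on the other strand.

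In eWAT, Hamp counts were low in most libraries. Counts ran from 1 to 41 in HFLF, from 1 to 33 in HF and from 0 to 197 in LF, or at most 1.89, 1.81 and 8.69 CPM. The 5 libraries high in Alb held 33 to 197 Hamp counts and the other 13 held 0 to 15. In those 5 libraries Hamp counts were 1.3% to 1.82% of Alb counts, against 0.0585% to 1.83% in the 18 liver libraries. No comparison of Hamp passed in eWAT by edgeR (HF against LF -2.77 ± 1.19, adjusted p = 0.0713, and 0.0164 to 0.477 over its alternatives), and without those 5 libraries the difference was -1.39 (adjusted p = 0.379).

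**Figure D3:**
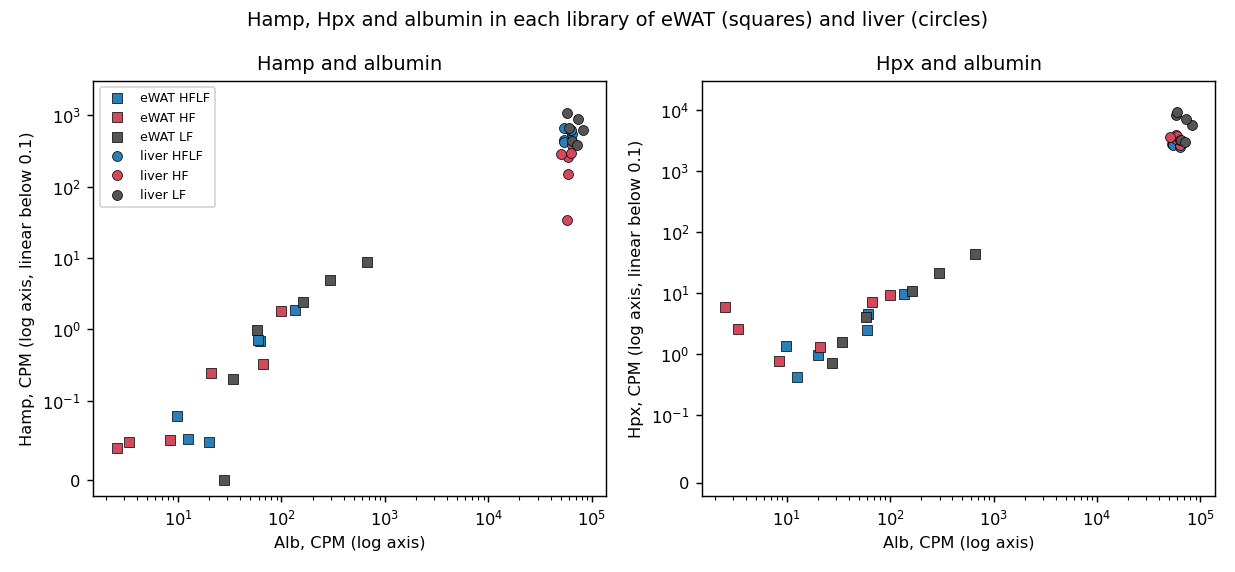
Hamp (left) and Hpx (right) against Alb in each library, in CPM on log axes, for eWAT (squares) and liver (circles) by diet. Among the eWAT squares, the 5 with the most Alb hold the most Hamp (1.81 to 8.69 CPM) and the most Hpx (9.15 to 43.5 CPM).

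Tfr2, transferrin receptor 2, is known as a sensor of iron-loaded transferrin on hepatocytes that feeds into hepcidin control. In liver it was among the steadiest of the 10 genes. It held 555 to 612 CPM in HFLF (median 594), 480 to 766 CPM in HF (median 612) and 507 to 689 CPM in LF (median 646), and the 3 groups overlapped. No comparison passed, with differences of -0.02 ± 0.10 for HF against LF, -0.10 ± 0.10 for HFLF against LF and -0.08 ± 0.10 for HFLF against HF.

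In eWAT, Tfr2 was far lower and differed with diet. It held 6.22 to 18.9 CPM in HFLF (median 12), 3.45 to 51.9 CPM in HF (median 23.9) and 2.53 to 20.6 CPM in LF (median 4.83). Apart from HF library 5, at 3.45 CPM, every HF library lay above all LF libraries, and LF library 5, at 20.6 CPM, lay far above the other 5 LF libraries (2.53 to 6.28 CPM). Tfr2 rose in HF against LF (1.84 ± 0.55, adjusted p = 0.0134), and by 2.54 without LF library 5. That LF library also had the most Alb. Its Tfr2 counts came to 3.1% of its Alb counts, against 0.616% to 1.52% in the liver libraries, and the part of liver transcripts in its Tfr2 level was not tested. The difference of HFLF from HF (-1.10 ± 0.54, adjusted p = 0.144) passed without HF library 5 (-1.33, adjusted p = 0.0392), and that of HFLF from LF did not pass (0.74 ± 0.54, adjusted p = 0.472).

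Tfrc, whose 4 matches to the searched form of the hairpin are printed above, encodes the transferrin receptor that brings iron into most cells. In liver it held 8.53 to 14.3 CPM in HFLF (median 11.3), 8 to 30 CPM in HF (median 16.9) and 17.5 to 30.6 CPM in LF (median 20.5). All 6 HFLF libraries lay below all 6 LF libraries, and HF spanned both. Tfrc fell in HFLF against LF by 0.98 ± 0.25 on the log2 scale (adjusted p = 0.0101). With LF libraries 1 to 4 left out the value was -1.29 but did not pass (adjusted p = 0.128). HF did not differ from LF by the test (-0.38 ± 0.24, adjusted p = 0.235), nor HFLF from HF (-0.60 ± 0.25, adjusted p = 0.153), but leaving out HF library 1 gave a pass in the first comparison (-0.62, adjusted p = 0.0311) and leaving out HF library 5 gave one in the second (-0.74, adjusted p = 0.0471).

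In eWAT, Tfrc held 17.4 to 30 CPM in HFLF, 23.8 to 39.4 CPM in HF and 16 to 34.3 CPM in LF. The 3 groups overlapped and no comparison passed. The difference of HF from LF was 0.35 ± 0.20 (adjusted p = 0.172), and it passed without the 5 libraries high in Alb (0.78, adjusted p = 0.00621) and in limma voom (0.55, adjusted p = 0.0365).

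Slc40a1 encodes ferroportin. In liver it held 108 to 154 CPM in HFLF (median 124), 104 to 137 CPM in HF (median 126) and 57.2 to 132 CPM in LF (median 88.3). LF library 5, at 132 CPM, lay within the range of the other diets, and the other 5 LF libraries held 88.6 CPM or less. Slc40a1 rose in HF against LF (0.51 ± 0.15, adjusted p = 0.0154) and in HFLF against LF (0.54 ± 0.15, adjusted p = 0.0176). Both differences were smaller and did not pass without LF libraries 1 to 4 (0.18, adjusted p = 0.591, and 0.21, adjusted p = 0.597). HFLF and HF differed by 0.03 ± 0.15. In eWAT, Slc40a1 held 9.23 to 24.5 CPM in HFLF, 5.09 to 15.2 CPM in HF and 6.05 to 17 CPM in LF, and no comparison passed, the nearest being HFLF against HF (0.64 ± 0.32, adjusted p = 0.154).

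The ferritin subunits store iron: Fth1 encodes the heavy chain, which oxidizes iron, and Ftl1 the light chain. Both have processed pseudogenes, so their counts are uncertain to the extent that reads were shared. Gm22133 on the same strand and Gm10252 on the other strand overlap Ftl1, and neither is among the counted genes. In liver, Ftl1 held 1105 to 1532 CPM in HFLF (median 1275), 1544 to 2087 CPM in HF (median 1932) and 1493 to 2014 CPM in LF (median 1630). All HFLF libraries lay below all HF libraries, and the highest HFLF libraries reached into the LF range. Ftl1 fell in HFLF against HF by 0.54 ± 0.11 on the log2 scale (adjusted p = 0.00991), with adjusted p-values of 6.4e-05 to 0.032 over the alternatives. It fell in HFLF against LF by 0.37 ± 0.11 (adjusted p = 0.0174), and not by the test without LF libraries 1 to 4 (-0.36, adjusted p = 0.286). HF and LF differed by 0.17 ± 0.11 (adjusted p = 0.229).

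Fth1 in liver held 833 to 1055 CPM in HFLF (median 949), 933 to 1508 CPM in HF (median 1362) and 920 to 1211 CPM in LF (median 1080). HF libraries 1 to 4 lay above every library of the other diets, at 1325 to 1508 CPM, while HF libraries 5 and 6 lay among them. Fth1 fell in HFLF against HF by 0.43 ± 0.11 on the log2 scale (adjusted p = 0.0287). That call was lost when any 1 of HF libraries 1 to 4 or HFLF libraries 3 to 6 was left out (-0.45 to -0.38, adjusted p up to 0.0743). The difference of HF from LF was 0.25 ± 0.11 (adjusted p = 0.0757), and it passed with upper-quartile factors (0.33, adjusted p = 0.0277), in limma voom (0.29, adjusted p = 0.0453), without HF library 5 (0.33) and without HF library 6 (0.3).

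In eWAT the chains parted. Ftl1 held 1069 to 1808 CPM in HFLF (median 1291), 1318 to 3206 CPM in HF (median 1951) and 982 to 1498 CPM in LF (median 1227). HF libraries 1 to 4 lay above every LF library, and HF libraries 5 and 6 lay within the LF range. Ftl1 rose in HF against LF (0.73 ± 0.20, adjusted p = 0.00843), but not by the test without the 5 libraries high in Alb, which include HF library 3, the highest (0.43, adjusted p = 0.141). It fell in HFLF against HF by 0.58 ± 0.20 on the log2 scale (adjusted p = 0.0447), a call that was lost when any 1 of 8 libraries (HF 1, 3 and 4, and HFLF 1 and 3 to 6) was left out (-0.63 to -0.39, adjusted p up to 0.132). That call was also lost without the 5 libraries high in Alb (-0.33, adjusted p = 0.213), with upper-quartile factors (adjusted p = 0.0569), with only the 2 groups compared (adjusted p = 0.0765) and in limma voom (-0.37, adjusted p = 0.098). Fth1 held 1593 to 2695 CPM in HFLF, 1766 to 2171 CPM in HF and 1423 to 2048 CPM in LF, and no comparison passed (0.13 ± 0.13 for HF against LF).

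The log2 ratio of Fth1 to Ftl1 counts shows this within each library. In eWAT it averaged 0.561 ± 0.05 in HFLF, 0.033 ± 0.42 in HF and 0.573 ± 0.096 in LF (SD, n = 6 each), with a lowest value of -0.562 in HF. All 6 HF libraries lay below the lowest LF library, which was at 0.433, and below all HFLF libraries. HF libraries 5 and 6, at 0.421 and 0.425, were only just below that LF library, and the ratio was not tested. In liver the ratio averaged -0.442 ± 0.137 in HFLF, -0.569 ± 0.121 in HF and -0.64 ± 0.178 in LF, and the groups overlapped.

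**Figure D4:**
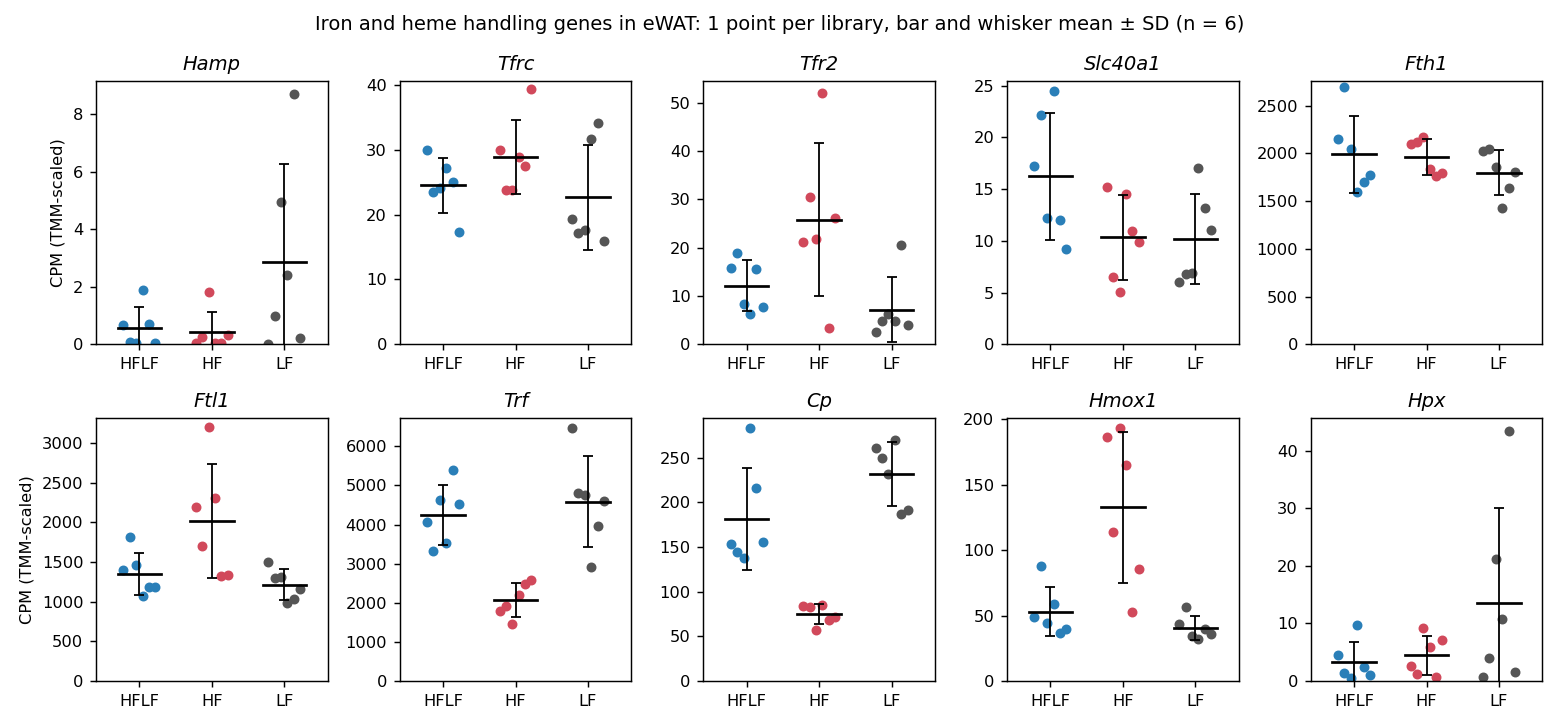
CPM of the 10 genes in each of the 18 eWAT libraries by diet, with mean ± SD (n = 6). The HF points of Trf and Cp lie under all points of HFLF and LF, and the HF points of Hmox1 and Ftl1 spread upward from the range of the other diets.

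Trf encodes transferrin, the plasma iron carrier, and was the most abundant of the 10 transcripts in liver. It held 12410 to 15210 CPM in HFLF (median 13700), 13880 to 17070 CPM in HF (median 15240) and 15250 to 22170 CPM in LF (median 18820). All HFLF libraries lay below all LF libraries, and HF overlapped both. Trf fell in HFLF against LF by 0.45 ± 0.09 on the log2 scale (adjusted p = 0.00326) and in HF against LF by 0.31 ± 0.09 (adjusted p = 0.0158). The HF call was lost with upper-quartile factors (-0.23, adjusted p = 0.0605), and neither passed without LF libraries 1 to 4 (-0.26, adjusted p = 0.344, in HFLF and -0.12, adjusted p = 0.638, in HF). HFLF and HF did not differ by the test (-0.14 ± 0.09, adjusted p = 0.395). Gm20425, which is not among the counted genes, overlaps Trf on the same strand.

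In eWAT, Trf was abundant too and separated the diets. It held 3331 to 5385 CPM in HFLF (median 4300), 1452 to 2573 CPM in HF (median 2058) and 2911 to 6482 CPM in LF (median 4685). Every HF library lay below every library of the other diets. Trf fell in HF against LF by 1.15 ± 0.19 on the log2 scale (adjusted p = 0.00019) and rose in HFLF against HF (1.04 ± 0.19, adjusted p = 0.00165). HFLF and LF differed by -0.11 ± 0.18 (adjusted p = 0.775). Both calls held when each library was left out and under the other alternatives, including the one without the 5 libraries high in Alb (-1.27 and 1.0).

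Cp encodes ceruloplasmin, a copper enzyme that oxidizes iron so that transferrin can bind it. In liver it held 1016 to 1146 CPM in HFLF (median 1063), 1020 to 1146 CPM in HF (median 1064) and 1023 to 1860 CPM in LF (median 1540). LF libraries 1 to 4, at 1414 to 1860 CPM, lay above every other liver library, and LF libraries 5 and 6, at 1069 and 1023 CPM, lay among those of HFLF and HF. Cp fell in HFLF against LF by 0.45 ± 0.12 on the log2 scale (adjusted p = 0.0149) and in HF against LF by 0.45 ± 0.12 (adjusted p = 0.0102). The values turned to 0.04 in HFLF and 0.05 in HF without LF libraries 1 to 4. HFLF and HF differed by -0.01 ± 0.12.

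In eWAT, Cp gave the smallest adjusted p of the 10 genes. It held 138 to 283 CPM in HFLF (median 155), 57 to 84.7 CPM in HF (median 77.3) and 187 to 269 CPM in LF (median 241). No HF library came near those of the other diets, while HFLF and LF overlapped. Cp fell in HF against LF by 1.63 ± 0.17 on the log2 scale (adjusted p = 2.35e-05) and rose in HFLF against HF (1.28 ± 0.17, adjusted p = 0.00043), and both calls held in all alternatives. HFLF was 0.35 ± 0.17 lower than LF on the log2 scale, which did not pass (-0.35, adjusted p = 0.281). Cp overlaps Hps3 on the other strand, which held 17.6 to 31.2 CPM in eWAT, and the counting strand is not given, so reads in the overlap cannot be told apart.

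Hmox1 encodes heme oxygenase 1, the inducible enzyme that opens the heme ring. In liver it held 11.8 to 21.9 CPM in HFLF (median 17.2), 15 to 27.6 CPM in HF (median 20.8) and 17 to 102 CPM in LF (median 45.6). LF libraries 1 to 4 held 102, 61.1, 38.9 and 52.4 CPM, all above every other liver library, while LF libraries 5 and 6 held 19.1 and 17 CPM. Hmox1 fell in HFLF against LF by 1.56 ± 0.35 on the log2 scale (adjusted p = 0.00625) and in HF against LF by 1.19 ± 0.35 (adjusted p = 0.0148). Without LF libraries 1 to 4 the values were -0.13 (adjusted p = 0.846) and 0.24 (adjusted p = 0.612). HFLF and HF did not differ by the test (-0.37 ± 0.35, adjusted p = 0.582).

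In eWAT the direction in HF was the opposite of that in liver with all libraries kept. Hmox1 held 36.8 to 87.6 CPM in HFLF (median 46.5), 52.7 to 193 CPM in HF (median 140) and 31.8 to 56.9 CPM in LF (median 37.6). HF library 5, at 52.7 CPM, was the only HF library inside the LF range. Hmox1 rose in HF against LF (1.72 ± 0.29, adjusted p = 0.000265), fell in HFLF against HF by 1.33 ± 0.29 on the log2 scale (adjusted p = 0.00411) and did not differ by the test between HFLF and LF (0.39 ± 0.29, adjusted p = 0.477). The HF calls held when each library was left out and without the 5 libraries high in Alb (1.42 and -1.23).

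Macrophage markers moved with Hmox1 and Ftl1 in eWAT. The 8 markers were Adgre1, Cd68, Csf1r, Mrc1, Cd163, Lyz2, Trem2 and Cd5l. Of these, 6 rose and 0 fell in HF against LF (20.6% and 20.2% of all genes). In HFLF against HF, 6 fell and 0 rose (14.7% and 10.7% of all genes). Cd163 and Cd5l did not pass in either. The 8 markers summed to 857 to 2113 CPM in HFLF, 1101 to 5662 CPM in HF and 527 to 976 CPM in LF. Of the 8, 0 were at 0 in any library. The HF libraries with the lowest sums, 5 (1101 CPM) and 6 (1367 CPM), were also the HF libraries lowest in Hmox1 (52.7 and 85.6 CPM). HFLF library 2 had the highest sum of its group (2113 CPM) and the highest Hmox1 (87.6 CPM) and Ftl1 (1808 CPM). Of 6 adipocyte markers, Lep rose and Lipe, Plin1 and Adipoq fell in HF against LF, with a summed level of 11140 to 16200 CPM in HFLF, 7194 to 17540 CPM in HF and 10010 to 17900 CPM in LF. The part of the macrophage and adipocyte content in the results for Hmox1, Ftl1, Trf and Cp was not tested.

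**Figure D5:**
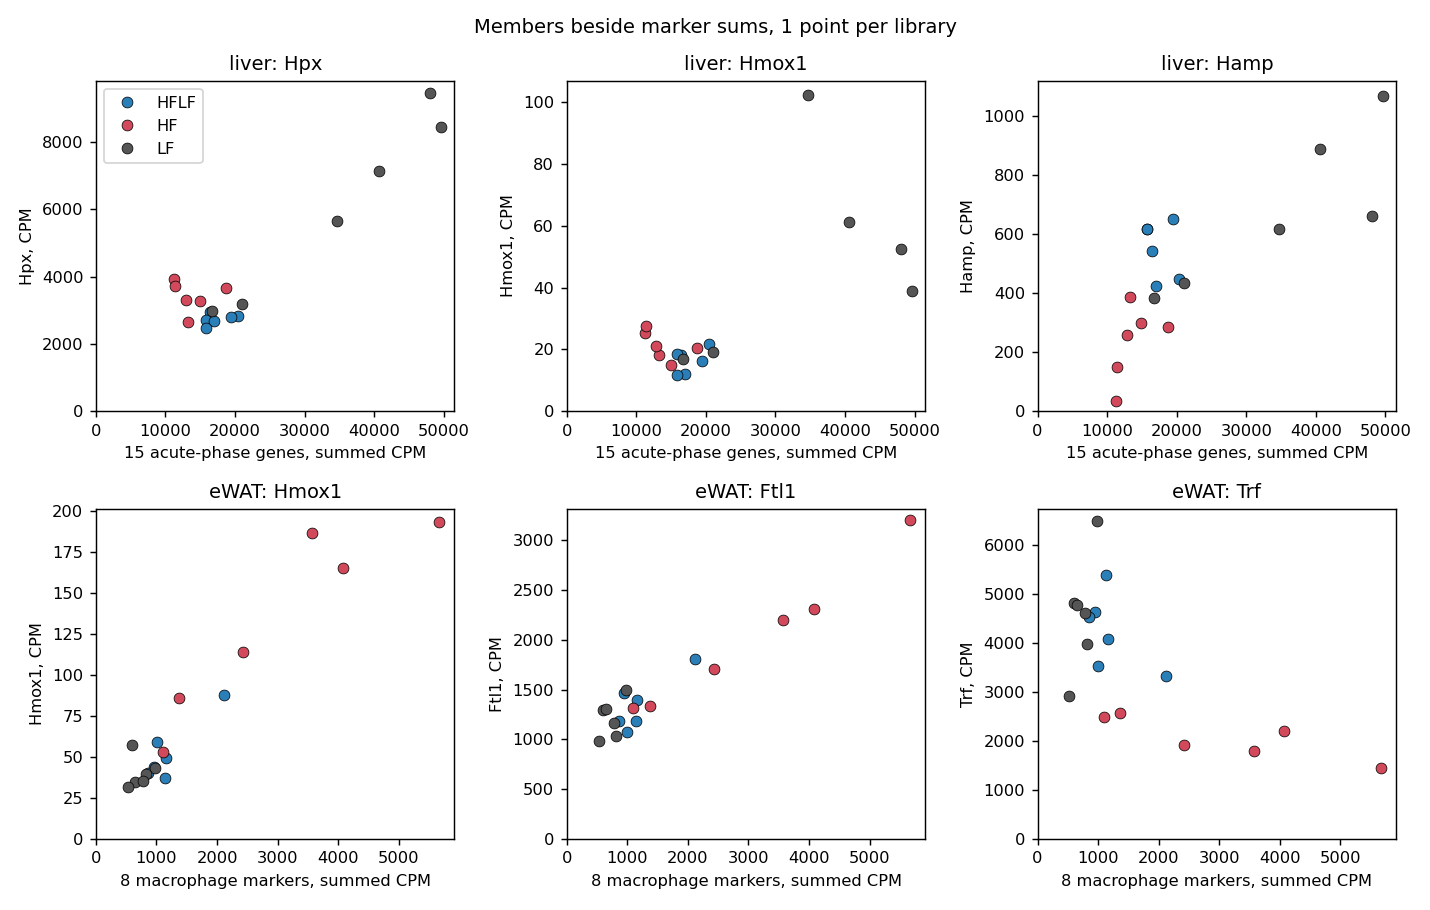
CPM of a gene against a summed marker level in each library, by diet. The upper panels show Hpx, Hmox1 and Hamp against 15 acute-phase genes in liver, where 4 LF libraries stand apart at 34660 to 49610 CPM; the lower panels show Hmox1, Ftl1 and Trf against 8 macrophage markers in eWAT, where the HF library with the highest sum (5662 CPM) has the highest Hmox1 and Ftl1 and the lowest Trf.

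Hpx encodes hemopexin, the plasma protein that binds free heme and is known to rise in the acute phase. In liver it held 2457 to 2938 CPM in HFLF (median 2761), 2642 to 3926 CPM in HF (median 3493) and 2970 to 9462 CPM in LF (median 6398). LF libraries 1 to 4 held 5652 to 9462 CPM and LF libraries 5 and 6 held 3197 and 2970 CPM; even the lowest of these lay above all HFLF libraries. Hpx fell in HFLF against LF by 1.17 ± 0.23 on the log2 scale (adjusted p = 0.00239) and in HF against LF by 0.84 ± 0.22 (adjusted p = 0.00809). Without LF libraries 1 to 4 the values were -0.17 (adjusted p = 0.58) and 0.15 (adjusted p = 0.555). HFLF and HF differed by -0.32 ± 0.22 (adjusted p = 0.422).

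In eWAT, Hpx held 0.42 to 9.68 CPM in HFLF (median 1.91), 0.761 to 9.15 CPM in HF (median 4.24) and 0.705 to 43.5 CPM in LF (median 7.4). No comparison passed. In the 5 libraries high in Alb, Hpx counts were 6.53% to 9.21% of Alb counts, within the 3.87% to 15.8% of the liver libraries. Without them the difference of HF from LF was 0.76 (adjusted p = 0.521), against -1.61 ± 0.91 with them. In HF libraries 1 and 4, where Alb was at 3.36 and 2.55 CPM, Hpx counts came to 75.4% and 233% of Alb counts, above every liver library.

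Hepatocyte markers in eWAT were measured for 8 of 8 genes. Of these, 4 (Alb, Cyp2e1, Tat and Serpina1a) were lower in HF than in LF (20.2% of all genes). Between HFLF and LF, 0 of the 8 differed (0.563% of all genes). The 8 markers summed to 897 to 3302 CPM in HFLF, 32.3 to 1326 CPM in HF and 3062 to 7798 CPM in LF. Most of this was Cyp2e1, which adipose tissue is itself known to express. Alb was at 9.73 to 135 CPM in HFLF, 2.55 to 99.3 CPM in HF and 27.6 to 666 CPM in LF. Red cell markers were lower for 4 of 6 measured genes in eWAT of HF against LF (20.2% of all genes). In liver they were lower for 0 of 5 in each comparison (3.05% to 18.5% of all genes). Their summed level in eWAT was 288 to 487 CPM in HFLF, 94.2 to 366 CPM in HF and 289 to 593 CPM in LF. The part of these cells in the results was not tested.

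The tissues differed in how 4 of the 10 genes changed in HF against LF, by a test of tissue and diet together (liver minus eWAT) over 13206 genes, of which 45.6% passed. Hmox1 differed most (-2.85 ± 0.46, adjusted p = 1.63e-05), being lower in liver and higher in eWAT. Cp (1.24 ± 0.22, adjusted p = 5.66e-05) and Trf (0.89 ± 0.25, adjusted p = 0.00406) were lower in both tissues, more so in eWAT, and Tfr2 (-1.80 ± 0.55, adjusted p = 0.00846) was higher in eWAT. Without liver LF libraries 1 to 4, these 4 still passed, at -1.45 for Hmox1, 1.71 for Cp, 1.06 for Trf and -1.86 for Tfr2. The liver values of HF against LF then turned to 0.24 for Hmox1 and 0.05 for Cp, so neither was lower in liver without those libraries. The test was not repeated without the eWAT libraries high in Alb. In HFLF against LF, Hmox1 (-1.90 ± 0.46, adjusted p = 0.0115) and Tfrc (-1.04 ± 0.33, adjusted p = 0.0444) differed, where 8.56% of genes did, and neither passed without those 4 libraries (-0.51 and -1.37). The Tfrc value lost its call in most fits that left out 1 library (adjusted p of 0.0224 to 0.0742). In HFLF against HF, Trf (-1.19 ± 0.25, adjusted p = 0.00204) and Cp (-1.31 ± 0.22, adjusted p = 0.000426) differed, where 18% of genes did.

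Of 92 other genes of iron and heme in 7 lists, 86 were measured in liver. In HF against LF, 18 rose and 19 fell, where 16.3% of all genes rose and 18.5% fell, with a median log2 fold change of -0.02 (0.001 over all genes). In HFLF against LF, 5 rose and 18 fell (10.2% and 12.4% of all genes, median -0.02), and in HFLF against HF, 4 rose and 9 fell (2.18% and 3.05% of all genes, median -0.08). Without LF libraries 1 to 4 the counts were 1 higher and 1 lower in HF against LF and 0 and 0 in HFLF against LF (24 and 13 at an unadjusted p under 0.05). The 2 that still passed in HF were 1 lower gene of hepcidin control and 1 higher gene of heme breakdown, transport and binding, so each of the other lists below had 0 calls against LF in that fit.

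Among the genes of membrane iron transport and reduction, 9 were measured in liver. In HF against LF, 5 fell and 1 rose (18.5% and 16.3% of all genes). In HFLF against LF, 4 fell and 0 rose (12.4% and 10.2% of all genes). Slc39a14, a transporter of iron that is not bound to transferrin, averaged 277 ± 29.7 CPM in HF and 537 ± 165 CPM in LF (SD, n = 6 each), with a log2 fold change of -0.96 ± 0.16 (adjusted p = 0.000489). Steap4, a metalloreductase, averaged 174 ± 27.4 CPM in HF and 1042 ± 814 CPM in LF (-2.59 ± 0.52, adjusted p = 0.00173). Slc11a2, the divalent metal transporter, fell in HF (-1.0 ± 0.22) and in HFLF against LF (-1.13 ± 0.22). Lcn2, which binds siderophores and is also one of the 15 acute-phase genes above, fell most in HFLF against LF (-5.84 ± 1.06, adjusted p = 0.00195). None of these 9 genes passed without LF libraries 1 to 4 in edgeR, with 3 and 0 at an unadjusted p under 0.05 in HF and in HFLF against LF.

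Genes of hepcidin control went both ways in liver, where 23 were measured. In HF against LF, 2 rose and 7 fell (16.3% and 18.5% of all genes). In HFLF against LF, 2 rose and 6 fell (10.2% and 12.4% of all genes). In HFLF against HF, 3 rose and 1 fell (2.18% and 3.05% of all genes). Without LF libraries 1 to 4, 0 rose and 1 fell in HF against LF, and 0 passed in HFLF against LF (8 and 3 at an unadjusted p under 0.05). Smad4, the shared partner of the BMP signal transducers, averaged 25.6 ± 1.81 CPM in HF and 34.2 ± 2.31 CPM in LF (-0.42 ± 0.06, adjusted p = 0.000195), and rose in HFLF against HF (0.25 ± 0.06, adjusted p = 0.0292). Smad1, which carries the BMP signal, fell in HF (-0.98 ± 0.17) and in HFLF (-0.88 ± 0.17) against LF. Smad9 rose in HFLF against HF, at 22.8 ± 5.47 CPM in HFLF and 8.87 ± 2.13 CPM in HF (1.35 ± 0.26, adjusted p = 0.0101). Stat3, which carries the interleukin-6 signal to Hamp, fell in HFLF against LF (-1.11 ± 0.24, adjusted p = 0.0048). Id1, a BMP target gene, averaged 7.83 ± 2.62 CPM in HFLF, 7.33 ± 3.67 CPM in HF and 16.3 ± 6.38 CPM in LF. Bmp6, the ligand that reports liver iron, averaged 8.21 ± 1.95 CPM in HFLF, 6.58 ± 1.55 CPM in HF and 6.71 ± 1.61 CPM in LF, and no comparison of it passed. Hfe, a partner of the transferrin receptors, fell in HFLF against HF (-0.35 ± 0.08, adjusted p = 0.0187). Id1 and Bmp6 were named after their values were seen.

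Of 16 heme synthesis genes in liver, 5 rose and 2 fell in HF against LF, where 16.3% and 18.5% of all genes did. Without LF libraries 1 to 4 these counts were 0 and 0 (3 at an unadjusted p under 0.05). Cpox, a late enzyme of the pathway, rose in HF (0.70 ± 0.13, adjusted p = 0.00107) and in HFLF (0.53 ± 0.13, adjusted p = 0.00922) against LF. Alad, the second enzyme, rose in HF against LF (0.42 ± 0.10) and fell in HFLF against HF (-0.44 ± 0.10, adjusted p = 0.0232). In heme breakdown, transport and binding, 5 of 14 rose and 2 fell in HF against LF (16.3% and 18.5% of all genes). In HFLF against HF, 0 rose and 2 fell (2.18% and 3.05% of all genes). Bach1, a heme-sensing repressor of Hmox1, fell in HF (-0.90 ± 0.17, adjusted p = 0.000973) and in HFLF (-0.54 ± 0.17, adjusted p = 0.0272) against LF. Blvrb, a biliverdin reductase, rose in HF against LF (0.42 ± 0.11) and fell in HFLF against HF (-0.54 ± 0.11, adjusted p = 0.0131). Hp, haptoglobin, which binds free hemoglobin, averaged 2102 ± 118 CPM in HFLF and 6177 ± 3466 CPM in LF (-1.56 ± 0.29, adjusted p = 0.00221). Of the ferritin and chaperone genes, Pcbp1 and Bola2, iron chaperones, fell in HF (-0.23 ± 0.06 and -0.33 ± 0.09) and in HFLF (-0.32 ± 0.06 and -0.44 ± 0.09) against LF, and the other 3 measured did not pass. Of the iron sensors, Aco1, which encodes iron regulatory protein 1, rose in HF against LF (0.28 ± 0.09, adjusted p = 0.0209). Of the 16 mitochondrial iron genes, 4 rose and 1 fell in HF against LF (16.3% and 18.5% of all genes). Glrx5 (0.48 ± 0.10) and Hscb (0.80 ± 0.17) were among those that rose. Iscu, the scaffold of iron-sulfur clusters, fell in HFLF against HF (-0.45 ± 0.08, adjusted p = 0.0075).

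In eWAT, 89 of the 92 were measured: 14 rose and 26 fell in HF against LF, where 20.6% and 20.2% of all genes did (median -0.13, and -0.02 over all genes), 0 passed in HFLF against LF by edgeR (22 at an unadjusted p under 0.05), and 12 rose and 13 fell in HFLF against HF, where 10.7% and 14.7% of all genes did (median 0.09). Without the 5 libraries high in Alb the counts were 10 and 23, 0 and 2, and 12 and 7. Heme breakdown, transport and binding rose for 8 of 14 and fell for 0 in HF against LF (20.6% of all genes rose), and fell for 6 and rose for 0 in HFLF against HF (14.7% of all genes fell). Without the 5 libraries high in Alb, 4 of these rose in HF against LF and 3 fell in HFLF against HF. Blvra, a biliverdin reductase, averaged 65 ± 12.4 CPM in HF and 30.9 ± 6.6 CPM in LF (1.07 ± 0.16, adjusted p = 0.000113). Slc48a1, which moves heme out of lysosomes, rose in HF against LF (0.76 ± 0.13, adjusted p = 0.000292), as did Flvcr1, a heme exporter (1.06 ± 0.24, adjusted p = 0.00262). Hp fell in HFLF against HF, at 2360 ± 445 CPM in HFLF and 5184 ± 1474 CPM in HF (-1.14 ± 0.23, adjusted p = 0.00301). The macrophage marker sums given above moved with this list, and Cd163 belongs to both.

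Of the heme synthesis genes in eWAT, 9 of 16 fell and 0 rose in HF against LF (20.2% of all genes fell), and 4 rose and 0 fell in HFLF against HF (10.7% of all genes rose). Of the red cell markers given above, 4 of 6 fell in the same comparison of HF with LF, and 1 of them, Alas2, belongs to both lists. Of the 6 adipocyte markers 3 fell there, and the part of red cells and adipocytes in the fall of this list was not tested. Alad averaged 74.1 ± 10.8 CPM in HFLF, 42.1 ± 12.9 CPM in HF and 112 ± 11.8 CPM in LF, with a log2 fold change of -1.41 ± 0.17 in HF against LF (adjusted p = 3.32e-05) and 0.82 ± 0.17 in HFLF against HF (adjusted p = 0.00308). Pgrmc1, a heme-binding membrane protein, fell in HF against LF (-0.63 ± 0.08, adjusted p = 5.32e-05). Of 22 genes of hepcidin control, 1 rose and 7 fell in HF against LF (20.6% and 20.2% of all genes), and 1 rose and 4 fell without the 5 libraries high in Alb. Of these, Hfe rose, at 204 ± 56.9 CPM in HF and 109 ± 36.4 CPM in LF (0.90 ± 0.25, adjusted p = 0.0085), and was named after its value was seen. Of 12 membrane transport genes, Steap3, the endosomal ferrireductase that works with the transferrin receptor, rose in HF against LF (1.02 ± 0.14, adjusted p = 7.83e-05), while Steap2 (-1.84 ± 0.29) and Scara5, a ferritin receptor (-0.65 ± 0.20), fell. Aco1 fell (-0.65 ± 0.12, adjusted p = 0.000579), and Fbxl5, which degrades iron regulatory protein 2 when iron is present, rose (0.35 ± 0.07, adjusted p = 0.00147). Of 16 mitochondrial genes 2 rose and 5 fell in HF against LF (20.6% and 20.2% of all genes). Slc25a37, mitoferrin 1, rose (0.78 ± 0.13) and Slc25a28, mitoferrin 2, fell (-0.42 ± 0.07).

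Genes whose levels ranked most like those of a member over the 18 libraries of a tissue are given by Spearman's rho, as a description; the points share depth, diet and the libraries that stood apart. In liver they were Hif1an for Hamp (0.891), Hp for Hpx (0.909), Marcksl1, Ier5 and Fos for Hmox1 (0.95, 0.946 and 0.922), Ctsb and Apoe for Fth1 (0.942 and 0.928), Ephx1 for Ftl1 (0.922), Abhd17c for Trf (0.897), AI182371 for Tfr2 (0.878), Tifa for Cp (0.876) and Xkr9 for Tfrc (0.851). In eWAT they were Ppp1r18, P2ry6 and P2rx4 for Hmox1 (0.975, 0.963 and 0.963), Gsta3 and Sdha for Trf (0.961 and 0.961), Net1 and Gpx3 for Cp (0.948 and 0.944), Atp6v1f for Ftl1 (0.948), Serpina1d and Hnf4a for Hamp (0.946 and 0.94), Hc for Hpx (0.965), Cdc37 for Fth1 (0.915), Cmya5 for Tfr2 (0.868), Fam102a for Tfrc (0.851) and Zfp618 for Slc40a1 (0.812).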

How the data were processed

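Per the labels' protocols, total RNA was extracted with TRI reagent and read on a NovaSeq machine. Per the submitters' processing notes, STAR and the GRCm38.p6 genome were used. The tool that counted the reads, its annotation and its strand setting were not given in the sources used here. The authors deposited raw counts per gene for each tissue, not normalized. Every listed gene passed 0.5 CPM in 6 or more of the 18 libraries. A second deposited table per tissue, named RPKM, was not used here. Symbols came from GENCODE M21 and matched 14039 liver and 16674 eWAT genes.

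For each tissue, 1 quasi-likelihood model with the 3 diets as groups was fitted in edgeR 4.0.16 (R 4.3.3) with TMM factors and robust estimation, and tested with Benjamini-Hochberg adjustment over all genes at 0.05. Tissue differences came from 1 fit of the 13206 shared genes, with all libraries of both tissues taken as independent. Levels are TMM-scaled CPM, where per-library totals had been planned as the scale. RPKM here are these CPM per kilobase of merged GENCODE M21 exons. The members and lists were chosen with earlier results of these data known. The genes named are the 10 members, up to 3 called genes per list and comparison with the smallest adjusted p (not all are described), the 3 nearest genes by rank correlation (not all are given), and some others marked as chosen later. Alternatives were RLE and upper-quartile factors, filterByExpr, the replicate number as a block, only the 2 groups compared, DESeq2 1.42.0, limma 3.58.1 voom with quality weights, leaving out each library, and the 2 sets of libraries named in the text. The fit was tested on simulated data. A few items are not reported here.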

Additional observations from a re-analysis of the deposited data

Results flagged for a closer look

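In 60 groups of 6 libraries, 3 held a library far from the other 5 (chance gives about 1 in 20 groups). These were Hamp in eWAT HFLF, where library 4 held 1.89 CPM, Hamp in eWAT HF, where library 3 held 1.81 CPM, and Tfr2 in eWAT LF, where library 5 held 20.6 CPM. All 3 libraries were among the 5 with over 100 CPM of Alb before TMM scaling.

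The difference between liver and eWAT in HF against LF was itself past the threshold for Tfr2 (-1.80), Trf (0.89), Cp (1.24) and Hmox1 (-2.85). In HFLF against LF this held for Tfrc (-1.04) and Hmox1 (-1.90), and in HFLF against HF for Trf (-1.19) and Cp (-1.31). Values are log2 fold changes in liver minus those in eWAT.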

How the results depend on the processing

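The call of 735 genes in liver HFLF against HF became 444 with the replicate number as a block, 1181 with only the 2 groups compared, 1322 in DESeq2, 1729 in limma voom and 215 to 1036 when single libraries were left out (members 2, then 1 to 3). The 94 genes in eWAT HFLF against LF became 15 with the block, 50 with only the 2 groups, 704 in DESeq2, 644 in limma voom, 166 without the libraries high in Alb and 0 to 341 when single libraries were left out. The replicate numbers did not pair the libraries between diets: correlations of same-numbered libraries ran from -0.363 to 0.58, and at most 2 of 6 matched their own number best. Between liver and eWAT of a diet these correlations ran from -0.0823 to 0.193, and 3 of 6 matched their own number best in each diet. Whether same-numbered liver and eWAT libraries share a mouse was not tested, and the tissue differences do not allow for such pairing. Without liver LF libraries 1 to 4, chosen after the data were seen, 297 genes and 0 members passed in HF against LF, and 26 genes and 0 members in HFLF against LF. Signs then turned for Cp (0.049), Hmox1 (0.24) and Hpx (0.15) in HF and for Hamp (0.43) and Cp (0.042) in HFLF against LF. The tissue difference in HFLF against LF held for 1 member with upper-quartile factors, 0 without those 4 libraries (Cp turned to 0.41) and 1 to 3 when single libraries were left out. Without the libraries high in Alb, also chosen later, Fth1 (-0.028) and Hpx (0.76) turned in eWAT HF against LF.

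With upper-quartile factors, values near 0 turned for Tfr2 in liver HF against LF (0.049), Slc40a1 in eWAT HF against LF (-0.031) and the tissue difference of Ftl1 in HFLF against HF (-0.047, and -0.021 with the block). Leaving out single libraries turned these uncalled values. In HF against LF they were Tfr2 in liver (-0.0897 to 0.044), Slc40a1 in eWAT (-0.12 to 0.23) and the tissue difference of Hpx (-0.021 to 1.17). In HFLF against HF they were Slc40a1 (-0.033 to 0.074) and Cp (-0.026 to 0.011) in liver, Hamp (-0.44 to 2.04) and Fth1 (-0.083 to 0.079) in eWAT, and the tissue differences of Hamp (-0.91 to 1.65), Ftl1 (-0.16 to 0.12) and Hpx (-0.204 to 0.95). In HFLF against LF they were the tissue differences of Slc40a1 (-0.29 to 0.094) and Cp (-0.15 to 0.11). The cause of these moves was not tested, except that leaving libraries out leaves fewer samples. Of the other planned results apart from those that leave out a library, 524 kept their direction and side of the threshold. Hamp in eWAT rests on 0 to 197 counts per library.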
